A study of Mus musculus with 20 samples.

Results

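The glucocorticoid receptor gene and 9 genes that glucocorticoids are known to induce were followed across the livers of 20 fasted mice. The set holds Nr3c1, which encodes the receptor, and Fkbp5, Tsc22d3, Zbtb16, Ddit4, Sgk1, Dusp1, Klf9, Cdkn1a and Errfi1. A gene entered through probe sets that the platform annotation ties to that gene alone, and where a gene had several, the brightest on average stood for it. All 10 genes were found, through 30 probe sets, among 18193 named genes, and 10 of 10 lay among the 11728 genes whose mean reached the median of all probe sets (6.51 on the deposited log2 scale). The set was chosen on earlier results of these data, in which the spread between mice of Fkbp5, Tsc22d3 and Zbtb16 was among the widest. The size of that spread is therefore given as a description.

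Each array measured liver RNA of 1 male C57BL/6J mouse, an inbred strain, at 8 weeks of age. The MSXH group of 10 mice ate a high-fat diet (45 kcal% fat) with 0.05% of a maple syrup extract for 4 weeks, and the HFD group of 10 mice ate the high-fat diet without it. All 20 mice were killed on day 30 after a 16 h fast, so there was no fed or low-fat group here. Low-fat (10 kcal%) and 0.02% extract groups of the study were not analysed here. The labels give no blood corticosterone and no time of death for single mice.

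Glucocorticoids are steroid hormones of the adrenal cortex whose release climbs with fasting, stress and the hours before activity. In the liver they bind the receptor in the cytosol, where heat shock proteins hold it, and the bound receptor moves to the nucleus and acts on genes of gluconeogenesis, amino acid breakdown, circadian timing and growth arrest. Several of the genes it switches on dampen the response itself: FKBP5 lowers the receptor's affinity for hormone, and in many cell types the receptor also represses its own gene.

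The deposited values are strongly compressed: the median SD of a probe set over the 20 arrays was 9.33e-06 log2 units. A difference on this scale cannot be read as a fold change. Levels are therefore given in SD units, as the distance of a mouse from the 20-mouse mean of the gene divided by the SD of the gene. Array medians spanned 0.000176 log2 units, and no pair of arrays held identical values (0 pairs). Hepatocyte markers were high, from 11.42 for Tat, which makes tyrosine aminotransferase, to 14.74 for Alb, the albumin gene.

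On the deposited scale the induced genes differed widely in how far they varied. Ddit4 ranked 8 of 11728 by SD between mice, Cdkn1a 16, Fkbp5 28, Zbtb16 36, Tsc22d3 43, Dusp1 113 and Sgk1 393. Nr3c1 ranked 1980, Errfi1 2737 and Klf9 3438. The ranges of these last 3 genes were 1.59, 0.958 and 0.573 times the range of the array medians, whereas Sgk1, the next widest, spanned 15.7 times that range and Ddit4 2485 times. Values of Nr3c1, Errfi1 and Klf9 thus rest on differences of about the size of the shifts between whole arrays.

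The receptor gene came first in the order of roles. In SD units, Nr3c1 lay at -1.26, -0.349 and 0.960 (lowest, median and highest) in the 10 MSXH mice, against -1.49, 0.106 and 2.56 in the 10 HFD mice. The groups overlapped, and the single highest mouse was HFD replicate 3. Of the 6 probe sets of Nr3c1, the 2 others above the filter level correlated with the chosen one at r = 0.88 and r = 0.74 over the 20 mice, and the 3 below it at -0.14 to 0.65.

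Fkbp5 encodes a co-chaperone of the receptor complex and is widely used as a transcript readout of receptor activity. Its deposited log2 levels were 9.03, 9.08 and 9.10 (lowest, median and highest) in MSXH mice, against 9.01, 9.08 and 9.09 in HFD mice. Most mice sat close together near the top, and 3 mice stood low: MSXH replicate 3 at -1.76 SD units, and HFD replicates 3 and 5 at -1.90 and -2.42. A second probe set of Fkbp5 above the filter level followed the first at r = 0.97.

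Among the transcriptional regulators, Tsc22d3, the leucine zipper protein GILZ that mediates anti-inflammatory effects of glucocorticoids, lay at -1.74, 0.245 and 1.24 SD units in MSXH mice, against -1.99, 0.510 and 0.993 in HFD mice. Zbtb16, the zinc finger protein PLZF, lay at -2.60, 0.510 and 0.703 in MSXH mice, against -2.04, 0.360 and 0.815 in HFD mice. Klf9, a Krüppel-like factor, lay at -1.49, -0.212 and 1.13 in MSXH mice, against -1.19, 0.111 and 1.61 in HFD mice. In all 3 genes the groups overlapped over most of their range. The 4 probe sets of Tsc22d3 and the 3 of Zbtb16 gave correlations with the chosen one of 0.45 to 0.99 and 0.76 to 0.95. Those of Klf9 were less alike, at 0.31 to 0.87 among its 5 others above the filter level.

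The stretch of the Tsc22d3 promoter that holds the 6-base receptor motif is shown because it is the only window among the 3 of that gene with such letters (RefSeq, GRCm38.p6, chrX:140600672-140600737, minus strand). Capitals mark TGTTCT, found on either strand, 185 to 180 bases before the annotated start, and the sequence reads 5′ to 3′ along the gene.
Tsc22d3: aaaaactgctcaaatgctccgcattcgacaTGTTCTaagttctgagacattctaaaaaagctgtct

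Of the signalling genes, Sgk1, a kinase that regulates ion transport and acts beside Akt, lay at -1.91, -0.224 and 1.61 SD units in MSXH mice, against -1.78, -0.00739 and 1.62 in HFD mice. Dusp1, the phosphatase that switches off p38 and JNK kinases, lay at -1.89, -0.147 and 2.01 in MSXH mice, against -1.08, -0.0251 and 1.36 in HFD mice. Errfi1, also called Mig6, an inhibitor of the EGF receptor, lay at -2.84, 0.314 and 0.561 in MSXH mice, against -2.71, 0.296 and 0.908 in HFD mice. For Errfi1, 1 mouse of each diet lay far below all others, MSXH replicate 4 and HFD replicate 5. Sgk1 and Dusp1 had 1 probe set each, and the 2 of Errfi1 correlated at r = 0.94.

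The Sgk1 promoter stretch is shown because it alone among the members held a full palindromic receptor element. It covers chr10:21993640-21993745, plus strand (RefSeq, GRCm38.p6), and capitals mark TGTTCT followed by the palindrome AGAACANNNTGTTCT, which lies 189 to 175 bases before 1 of the 6 annotated starts of the gene.
Sgk1: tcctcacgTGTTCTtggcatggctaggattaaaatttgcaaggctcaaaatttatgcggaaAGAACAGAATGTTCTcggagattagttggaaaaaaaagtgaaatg

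Promoter windows ran from 250 bases before to 50 after each start, and 8 of 10 members had entries, with 17 windows in all. The palindrome was in 1 of these 17 windows, against 3 of 32851 windows of all genes (0.00913%). The shorter TGTTCT, searched on both strands, was in 4 of 17, against 6233 of 32851 (19.0%), and each palindrome also contains it. The 4 windows belong to Sgk1, with 3 of its 6, and Tsc22d3, with 1 of its 3. A match of letters is not a measured binding site, and the receptor acts in large part through distant enhancers that these windows do not hold.

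Ddit4 and Cdkn1a are known as genes of growth arrest. Ddit4, or REDD1, which restrains mTORC1, had log2 levels of 6.94, 7.08 and 7.31 (lowest, median and highest) in MSXH mice, against 6.88, 7.11 and 7.32 in HFD mice. Cdkn1a, which encodes the cell cycle inhibitor p21 and is also a p53 target, had 7.64, 7.72 and 7.75 in MSXH mice, against 7.59, 7.72 and 7.75 in HFD mice. Ddit4 was spread evenly over its range, and Cdkn1a had a tail of low mice in both diets. The 2 probe sets of Cdkn1a followed each other at r = 0.99, and Ddit4 had a single one.

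**Figure D1:**
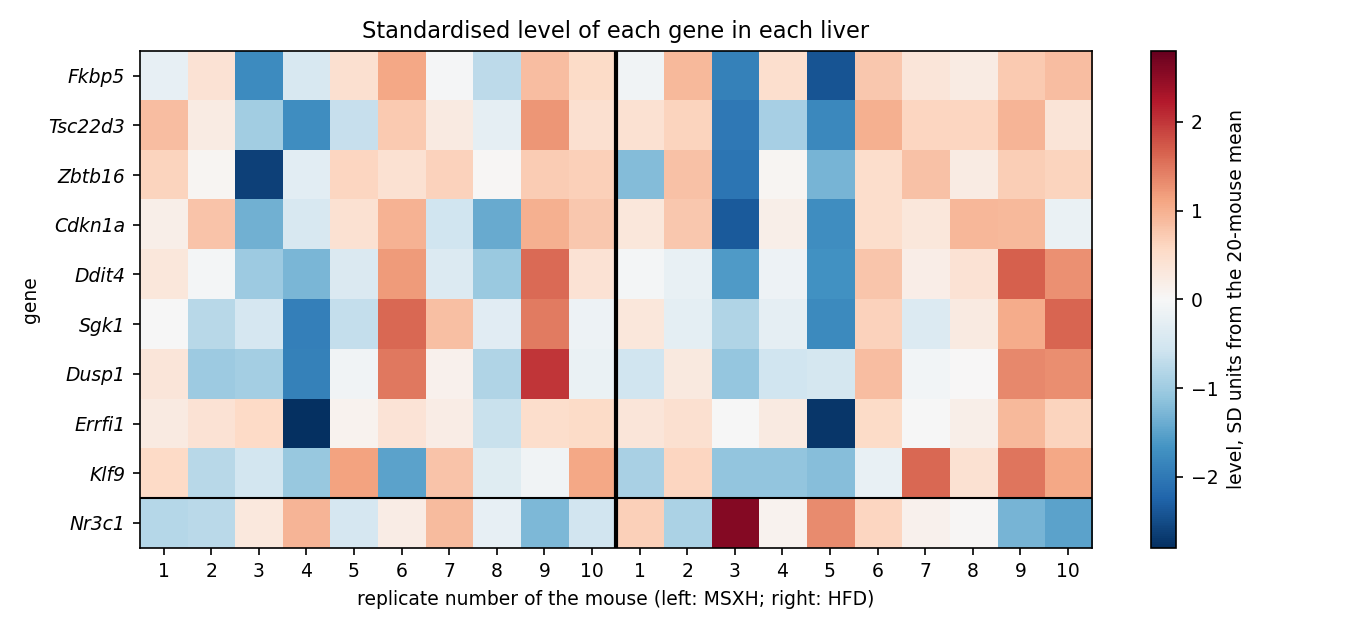
Level of each of the 10 genes (rows) in each of the 20 livers (columns, 10 MSXH mice at left and 10 HFD mice at right, by replicate number), in SD units from the 20-mouse mean of the gene. MSXH replicates 3 and 4 and HFD replicates 3 and 5 are low in most induced genes, and HFD replicate 3 is highest in Nr3c1, at 2.56.

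Mice tended to be high or low in the induced genes as a block. All 9 induced genes lay below their means in 3 mice (MSXH replicate 4, HFD replicates 3 and 5), and MSXH replicates 3 and 8 had 8 below. All 9 lay above their means in 2 mice, HFD replicates 8 and 9. Between 7 and 9 lay above in 9 mice, and between 7 and 9 below in 5 mice. In HFD replicate 3, Fkbp5 stood at -1.90 and Nr3c1 at 2.56. In HFD replicate 10, Fkbp5 stood at 0.864 and Nr3c1 at -1.49, its lowest.

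The first comparison asked which genes followed Fkbp5 from mouse to mouse. Pearson's r was computed between each member and each of the 11728 genes. Each r had a two-sided test over 100000 permutations of the mice, with Benjamini-Hochberg adjustment over all 117225 pairs and a threshold of adjusted p = 0.05. All 8 other induced genes had a positive r with Fkbp5 in the deposited values. Those of Klf9 and Errfi1 turned negative (-0.406 and -0.210) once the median of each array was subtracted. The array medians ranged more widely than either gene, so the turned signs are not read as relations of these genes. Of the 8, 4 passed: Cdkn1a, Zbtb16, Ddit4 and Tsc22d3. Over all genes, 327 of 11727 (2.79%) passed in the positive direction, and the median r of all genes was -0.038, with a 95% range of -0.676 to 0.669. The 8 induced genes had a median r of 0.713. Shares over all genes, here and below, were not matched in spread between mice to the genes set beside them.

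Cdkn1a followed Fkbp5 most closely of the members, at r = 0.896 (95% interval 0.752 to 0.959, n = 20 mice). The permutation p was 1e-05, the smallest that 100000 permutations can give, with adjusted p = 0.00420, and rho was 0.786 (permutation p = 9e-05, adjusted p = 0.0198). With HFD replicates 3 and 5 left out, the 2 mice at the greatest distance from the Fkbp5 median, r was 0.821. Ddit4 had r = 0.828 (permutation p = 1e-05, adjusted p = 0.00420) and rho = 0.770 (permutation p = 0.00016, adjusted p = 0.0244), with r = 0.745 without those 2 mice.

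Zbtb16 had r = 0.838 (permutation p = 0.00016, adjusted p = 0.0150) and rho = 0.711 (permutation p = 0.00077, adjusted p = 0.0490), with r = 0.782 without the 2 mice. Tsc22d3 had r = 0.775 (permutation p = 0.00021, adjusted p = 0.0169) and rho = 0.696 (permutation p = 0.00091, adjusted p = 0.0518), with r = 0.587 without them. The ranking of Tsc22d3 against Fkbp5 thus missed the threshold where the linear correlation passed it. By rank of r among 11727 genes, Cdkn1a was 16, Zbtb16 43, Ddit4 52 and Tsc22d3 117.

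The signalling genes did not pass against Fkbp5 by Pearson's r. Sgk1 had r = 0.651 (permutation p = 0.00188, adjusted p = 0.0529), with rho = 0.663 (permutation p = 0.00159, adjusted p = 0.0652) and r = 0.519 without HFD replicates 3 and 5. Dusp1 had r = 0.626 (permutation p = 0.00323, adjusted p = 0.0695), but its rho of 0.735 passed (permutation p = 0.00046, adjusted p = 0.0391), and r was 0.680 without those mice. Errfi1 had r = 0.567 (permutation p = 0.0163, adjusted p = 0.155), with rho = 0.635 (permutation p = 0.00342, adjusted p = 0.0909) and 0.360 without the 2 mice. Klf9 had the lowest r of the induced genes, 0.431 (permutation p = 0.0578, adjusted p = 0.285), with rho = 0.335 (permutation p = 0.149, adjusted p = 0.475) and 0.227 without them. The other probe sets of Klf9 gave 0.03 to 0.65 with Fkbp5.

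Nr3c1 itself ran against Fkbp5, with r = -0.679 (95% interval -0.862 to -0.338, permutation p = 0.00134, adjusted p = 0.0448). In the negative direction 358 of 11727 genes passed (3.05%), and 5.84% in either direction. Its rho was -0.617 (permutation p = 0.00463, adjusted p = 0.105), which missed the threshold, and without HFD replicates 3 and 5 r was -0.428. After quantile normalization r was -0.302 (adjusted permutation p = 0.418), and with no filter on low values the adjusted p was 0.0558, so the call ended in both. The second probe set of Nr3c1 above the filter level gave r = -0.80 with Fkbp5 and the third -0.50.

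**Figure D2:**
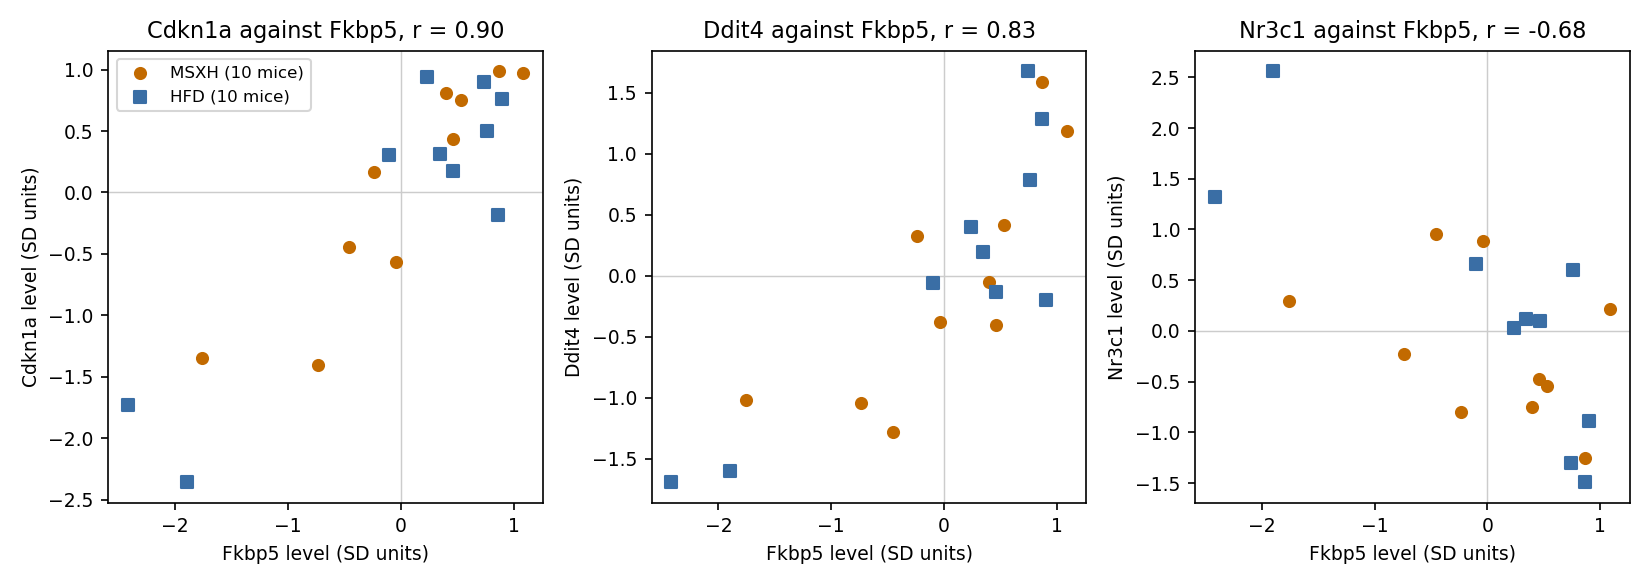
Levels of Cdkn1a, Ddit4 and Nr3c1 (vertical axes) against Fkbp5 (horizontal axes), each in SD units from the 20-mouse mean, with 1 point per mouse (circles, 10 MSXH mice; squares, 10 HFD mice). Cdkn1a (r = 0.896) and Ddit4 (r = 0.828) climb with Fkbp5 in both diets, Nr3c1 (r = -0.679) runs the other way, and 3 mice lie apart at low Fkbp5.

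The correlations were also computed without the 3 mice low in Fkbp5 (MSXH replicate 3 and HFD replicates 3 and 5), a check chosen after seeing the data. In that run the smallest possible permutation p, reached by 21 pairs of all genes, gave an adjusted p of 0.0558. No pair of any gene could pass there, and the count of 0 members past adjustment says nothing about them. Among the 17 other mice, 7 of the 8 induced genes kept an unadjusted permutation p below 0.05, against 5.92% of all genes in the positive direction. Their r was 0.755 for Ddit4, 0.747 for Cdkn1a, 0.728 for Dusp1, 0.637 for Errfi1, 0.574 for Sgk1, 0.508 for Zbtb16 and 0.498 for Tsc22d3. Klf9, at 0.160, and Nr3c1, at -0.445, did not reach that level. Over all 45 pairs of the 10 genes, 25 had such a p among the 17 mice, against 10.8% of all pairs.

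Array-wide measures were set beside this result. The median of each array correlated with Fkbp5 at r = 0.635 (permutation p = 0.00294, adjusted p = 0.00882 over 3 measures; r = 0.654 without the 2 mice farthest in Fkbp5) and rho = 0.805 (permutation p = 4e-05, adjusted p = 0.00012). The range of Fkbp5 was 506 times that of the array medians. Subtracting the median from each array moved r by at most 0.0219 among the 21 pairs of the 7 induced genes other than Klf9 and Errfi1, of which 20 then passed, against 15 before it. Quantile normalization moved the 15 of these pairs without Sgk1 by at most 0.0319 and those with Sgk1 by up to 0.598, and 12 of the 21 passed after it. Sgk1 then had r = 0.128 with Fkbp5 (0.651 in the deposited values), 0.176 with Tsc22d3 (0.765), 0.307 with Ddit4 (0.854) and 0.266 with Dusp1 (0.864). After median subtraction the smallest adjusted permutation p among pairs of members was 7.03e-05, against 0.00420 before it. Many more pairs of all genes thus had a small permutation p in that run. The share of all pairs that passed is not given here for either scaling. The higher count after median subtraction is therefore not read as a stronger result. The difference of 3′ and 5′ actin controls, a sign of RNA quality, correlated with Fkbp5 at r = 0.306 (permutation p = 0.187, adjusted p = 0.281), with rho = 0.153 (permutation p = 0.519) and r = -0.0623 without the 2 mice. That of the Gapdh controls had r = -0.147 (permutation p = 0.536), with rho = -0.224 (permutation p = 0.340) and r = -0.399 without them.

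Nr3c1 was then taken as the reference gene in place of Fkbp5. Its r was negative with 9 of 9 induced genes in the deposited values. After median subtraction Klf9 and Errfi1, whose values are narrower than the medians subtracted, turned positive (0.613 and 0.504). After quantile normalization Sgk1 turned positive (0.152). In the deposited values the r of Nr3c1 passed for 4: Ddit4, Tsc22d3, Fkbp5 and Cdkn1a. Over all genes 219 (1.87%) passed in the negative direction and 329 (2.81%) in the positive one, 4.67% in all. Ddit4 had r = -0.706 (permutation p = 0.00054, adjusted p = 0.0277), with rho = -0.650 (permutation p = 0.00236, adjusted p = 0.0774). Tsc22d3 had r = -0.675 (permutation p = 0.00096, adjusted p = 0.0376) with rho = -0.556 (permutation p = 0.0118, adjusted p = 0.157), and Cdkn1a r = -0.668 (permutation p = 0.00149, adjusted p = 0.0474) with rho = -0.552 (permutation p = 0.0128, adjusted p = 0.162). By rank correlation 0 of 9 passed after adjustment, while 8 had an unadjusted permutation p below 0.05.

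With the extremes of the receptor gene left out, its correlations kept their sign. Without HFD replicates 3 and 10, the 2 mice at the greatest distance from its median, r was -0.603 with Ddit4, -0.589 with Cdkn1a and -0.579 with Tsc22d3. After quantile normalization the same 3 were -0.225, -0.244 and -0.272, and 0 of 7 passed. Zbtb16, at r = -0.651 over the 20 mice (permutation p = 0.00245, adjusted p = 0.0605), did not pass. Errfi1 had the weakest r over the 20 mice, -0.484 (permutation p = 0.0355, adjusted p = 0.225), and -0.600 without those 2. The whole range of Nr3c1 was 1.59 times that of the array medians, so these correlations rest on very small differences. The part of array-wide differences in them was not tested beyond the scalings named here.

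Taking all pairs of the 10 genes, 21 of 45 passed, against 3.35% of the 117225 pairs of a member with any gene. That background was not matched to the members in spread between mice, and the part of spread in the excess was not tested. Every one of the 36 pairs of induced genes had a positive r in the deposited values. These 36 values ran from 0.288 to 0.896 with a median of 0.651, and 17 of 36 passed (1.93% of all pairs in that direction). After median subtraction 14 of the 36 turned negative, each with Klf9 or Errfi1, whose values are narrower than the medians subtracted. Beside the Fkbp5 pairs, the strongest joined Ddit4 with Dusp1 (r = 0.868), Sgk1 with Dusp1 (0.864), Tsc22d3 with Ddit4 (0.860) and Ddit4 with Sgk1 (0.854). The members were not equally tied together. Klf9 passed with 0 of the 8 other induced genes, with r from 0.304 (with Sgk1) to 0.606 (with Zbtb16), and 2 of these pairs had an unadjusted permutation p below 0.05 (18.8% of all pairs). Errfi1 passed with 2 of 8, Sgk1 (0.713) and Ddit4 (0.652). Among the 7 others 15 of 21 pairs passed. By rank correlation 16 of 36 induced pairs passed. The Klf9 pair with Zbtb16 was among those, with rho = 0.770 (permutation p = 0.00015, adjusted p = 0.0240), against r = 0.606 (permutation p = 0.00325, adjusted p = 0.0697).

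**Figure D3:**
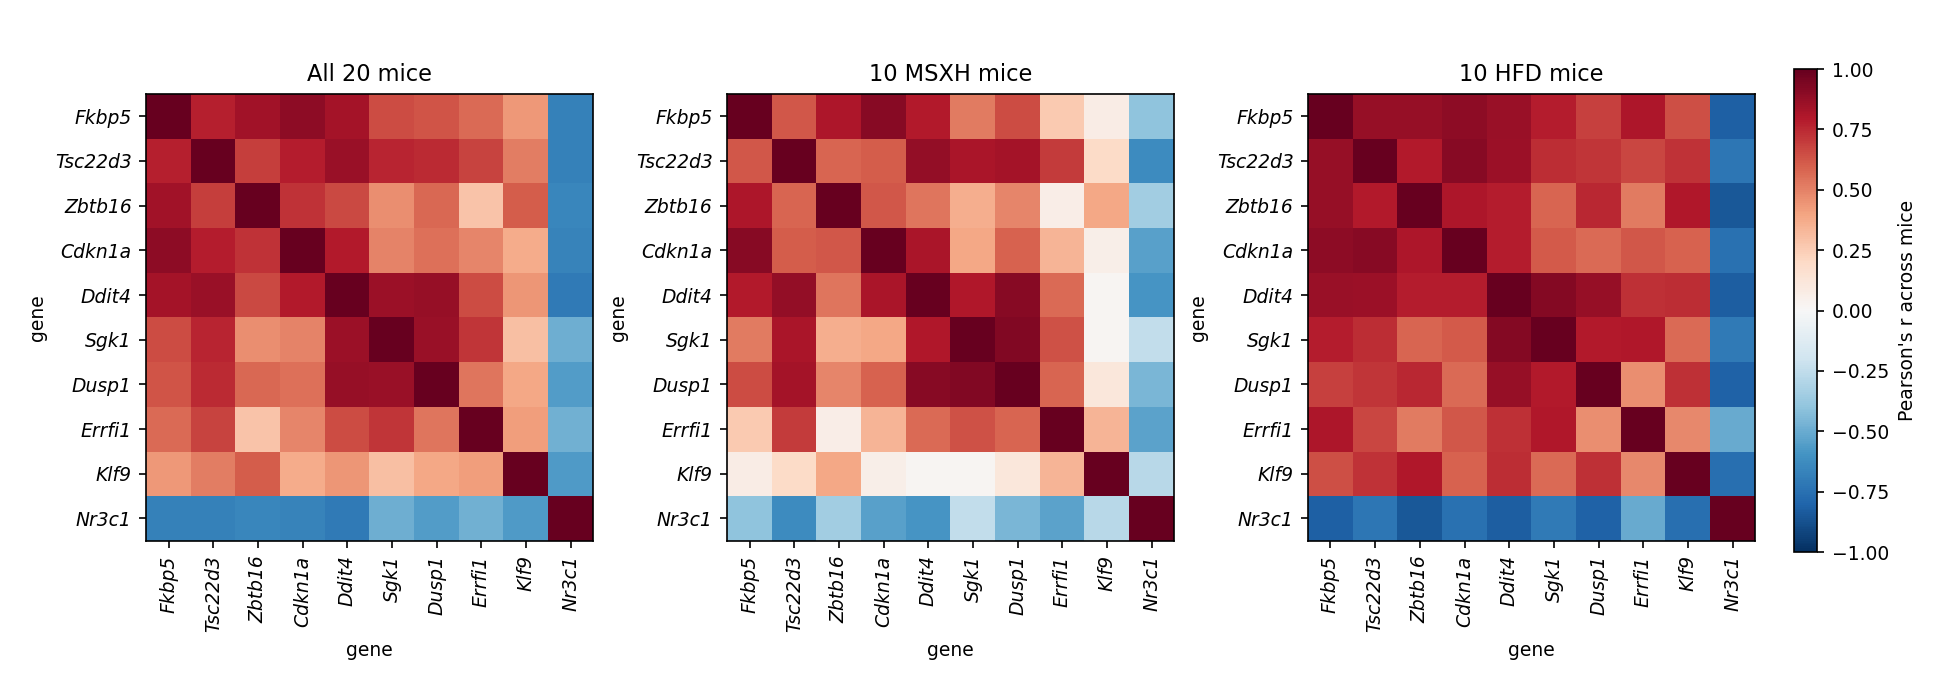
Pearson's r between each pair of the 10 genes (both axes) over all 20 mice, over the 10 MSXH mice and over the 10 HFD mice. The 36 pairs of induced genes are all positive in each panel (14 of them, with Klf9 or Errfi1, turn negative over the 20 mice after median subtraction), those with Klf9 lie between 0.021 and 0.386 in MSXH mice, and Nr3c1 is negative with all 9 genes (Klf9 and Errfi1 turn positive after median subtraction, and Sgk1 after quantile normalization).

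Within each diet the direction of all 45 pairs was the same as over the 20 mice, but 0 pairs passed adjustment in either diet. None could: the smallest possible permutation p gave an adjusted p of 0.209 among MSXH mice and of 0.0902 among HFD mice. Among the 10 MSXH mice, r of the 36 induced pairs ran from 0.021 to 0.925 with a median of 0.582, and 13 of 45 pairs had an unadjusted permutation p below 0.05 (7.92% of all pairs). Among the 10 HFD mice, it ran from 0.468 to 0.922 with a median of 0.748, and 35 of 45 pairs had such a p (14.2% of all pairs). Nr3c1 had r between -0.631 and -0.243 with the induced genes in MSXH mice, and between -0.849 and -0.505 in HFD mice. Klf9 had r of 0.021 to 0.386 with the other induced genes in MSXH mice and of 0.478 to 0.803 in HFD mice.

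Whether the diets differed in these relations was tested directly for Fkbp5. The slope of each gene on Fkbp5, with genes scaled to unit SD, was compared between diets with an interaction term in limma. The term passed for 0 of 9 members and for 0 of 11727 genes (0%), and 370 genes (3.16%) had an unadjusted p below 0.05. For Klf9 the slope was lower in MSXH than in HFD mice by a difference of -0.527 (limma p = 0.259, adjusted p = 0.99999). For Nr3c1 the difference was 0.496 (limma p = 0.288, adjusted p = 0.99999). For Cdkn1a it was 0.142 and for Ddit4 0.0902. The higher count among HFD mice is thus not shown to be a difference between diets.

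The diet itself was compared with limma over the 11728 genes, as MSXH minus HFD. No member passed the test: 0 of 10 were called, as did 0 of 11728 genes (0%), and 0 of 10 had an unadjusted p below 0.05, where 425 genes (3.62%) did. A Wilcoxon rank-sum test also passed 0 genes. Sizes are given as Hedges' g, the difference of means in pooled SD units corrected for small samples. In the deposited values Nr3c1 had the largest, -0.320 (95% interval -1.20 to 0.562, limma p = 0.457, adjusted p = 0.9998), with 4 of 10 MSXH mice above the median HFD mouse. After median subtraction it was -0.0331, and with single mice left out it ran from -0.525 to -0.0818. Zbtb16 had the largest positive one, 0.157 (95% interval -0.721 to 1.03, limma p = 0.714, adjusted p = 0.9998). Fkbp5 averaged 9.071 ± 0.0216 log2 units in MSXH mice and 9.070 ± 0.0300 in HFD mice (SD, n = 10 each), with g = 0.0204 (95% interval -0.856 to 0.897). Over the 10 genes, g was positive for 4 and negative for 6, with a median of -0.08, and the median over all genes was -0.0069. These intervals include differences of over 0.5 SD either way for every member, so shifts of that size were not excluded with 10 mice a group.

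**Figure D4:**
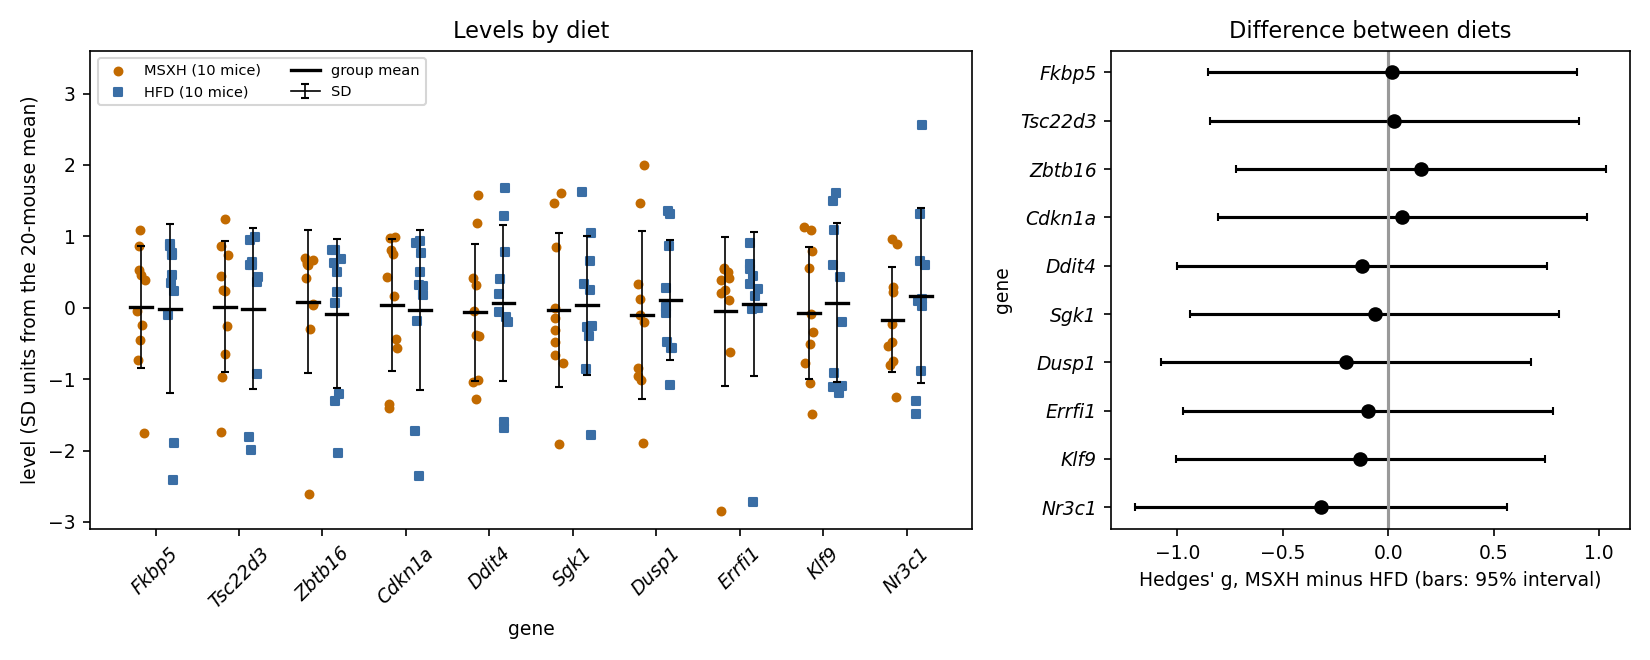
Left, level of each of the 10 genes in SD units from the 20-mouse mean, with 1 point per mouse, the group mean (bar) and SD (whisker), for 10 MSXH mice (circles) and 10 HFD mice (squares). Right, Hedges' g for MSXH minus HFD with its 95% interval; all 10 intervals contain 0, from g = -0.320 for Nr3c1 to 0.157 for Zbtb16.

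Other genes of the receptor's pathway were taken from lists drawn up with earlier results of these data known. How far those results shaped the lists cannot be told, so their counts are given as a description. Genes of liver metabolism that respond to glucocorticoids followed Fkbp5 most often. Of 16 measured, 11 passed with a positive r and 0 with a negative one (2.79% and 3.05% of all genes). The median r of the list was 0.79. Arg1, the arginase of the urea cycle, had r = 0.905, Cps1, which makes carbamoyl phosphate for that cycle, 0.899, Lpin1, a phosphatidate phosphatase, 0.877 and Mt1, a metallothionein, 0.850. Each of the 4 passed (permutation p from 1e-05 to 2e-05, adjusted p from 0.00420 to 0.00568), with rho between 0.735 and 0.818. Without the 3 mice low in Fkbp5 their r lay between 0.666 and 0.772, and the median of the list was 0.63. In that run 12 of 16 had an unadjusted permutation p below 0.05 (5.92% of all genes in the positive direction). Against Nr3c1, 9 of these 16 passed with a negative r (1.87% of all genes), and the median was -0.70. For genes of this and the following lists, values after median subtraction or quantile normalization are not given here.

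Other regulators that glucocorticoids induce were more mixed. Of 15 measured, 5 passed with a positive r with Fkbp5 and 0 with a negative one (2.79% and 3.05% of all genes). The median of the list was 0.47. Cebpd, a C/EBP transcription factor, had r = 0.846 (adjusted permutation p = 0.00928), Fam107a 0.787 (adjusted p = 0.0105), Foxo1, a factor of fasting metabolism, 0.786 (adjusted p = 0.00683) and Per1, a clock gene that the receptor switches on directly, 0.773 (adjusted p = 0.0222). For these 4, r was 0.724, 0.838, 0.634 and 0.553 without the 3 low mice.

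Genes of corticosteroid supply and breakdown, taken as a single list, leaned the opposite way. Of 8 measured, 3 passed with a negative r with Fkbp5 (3.05% of all genes) and 1 with a positive one (2.79%). The median of the list was -0.59. Serpina6, which encodes the blood carrier of corticosteroids, had r = -0.693 (adjusted permutation p = 0.0285). H6pd, which supplies NADPH to the enzyme that regenerates active hormone, had -0.687 (adjusted p = 0.0315), and Hsd3b5, a male-biased steroid dehydrogenase, -0.666 (adjusted p = 0.0475). Cyp3a13, a cytochrome P450, had 0.749 (adjusted p = 0.0133). Hsd11b1, the regenerating enzyme itself, had r = -0.614 and did not pass (adjusted p = 0.0681). Without the 3 low mice these 5 r values were -0.619, -0.402, -0.551, 0.639 and -0.518 in the same order.

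None of the 14 measured receptor chaperones and coregulators passed against Fkbp5 (0 of 14 by the permutation test, against 5.84% of all genes, median r = -0.14). The largest in size were Ppargc1a, a coactivator of fasting metabolism, at 0.615 (adjusted p = 0.0754), and Ncoa3, a steroid receptor coactivator, at -0.615 (adjusted p = 0.0713). Against Nr3c1, Ncoa3 had r = 0.860 (adjusted p = 0.00420) and Ppargc1a -0.742 (adjusted p = 0.0174), and both passed. H6pd also passed against Nr3c1, at 0.780 (adjusted p = 0.00985). Over all genes 4.67% passed against Nr3c1 in either direction. The range of Nr3c1 was only 1.59 times that of the array medians. For Ncoa3, Ppargc1a and H6pd, values after median subtraction or quantile normalization are not given here. The part of array-wide differences in these correlations was not tested.

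Lists of other programmes that share genes with the receptor's targets had medians between -0.10 and 0.38. Over all genes 2.79% passed in the positive direction and 3.05% in the negative one. The small counts in these short lists are given as values and not read as a result. Of 19 immediate early genes 1 passed, Gadd45b, at r = 0.730 (adjusted permutation p = 0.0133), and the list's median was 0.02. Of 15 core clock genes Per1 and Ciart passed, Ciart at 0.679 (adjusted p = 0.0436), with a median of 0.22. Of 12 p53 targets, the class that also holds Cdkn1a, Ei24 (0.748, adjusted p = 0.0122) and Trp53inp1 (0.673, adjusted p = 0.0392) passed, with a median of 0.38. In that list 10 genes had a positive r and 2 a negative one, among them Mdm2 at -0.135 (adjusted p = 0.813). Whether p53 took part in the variation of Cdkn1a was not tested. Of 13 genes of the ATF4 stress response, which also induces Ddit4, 1 passed and with a negative r, Chac1 at -0.758 (adjusted p = 0.0161; -0.330 without the 3 low mice), with a median of -0.10. The diet comparison passed 0 genes of any of these lists.

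**Figure D5:**
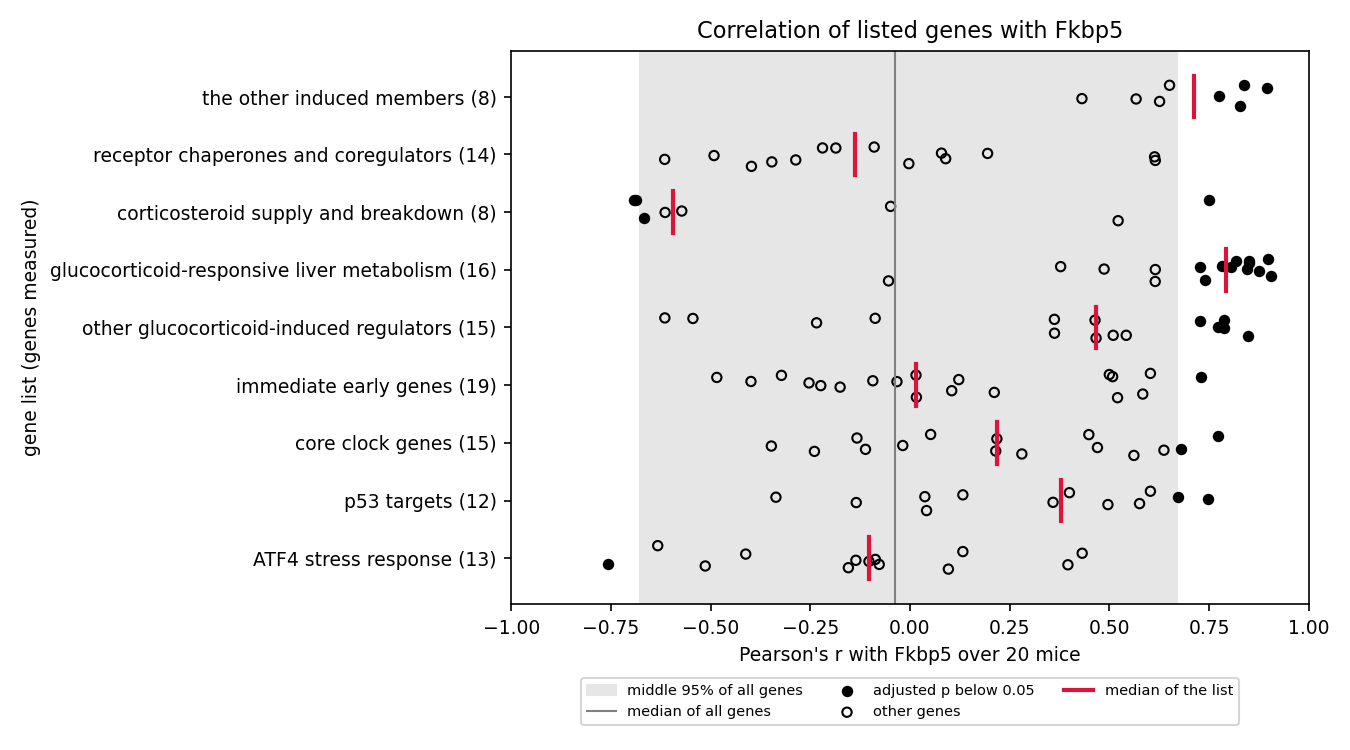
Pearson's r with Fkbp5 over the 20 mice (horizontal axis) for each measured gene of the listed groups (rows), with filled points past adjusted p = 0.05, the median of each list (short vertical bar), the median of all genes (line) and their middle 95% (grey band). The liver metabolism list has 11 of 16 genes past the threshold and a median of 0.79, and the chaperone list has 0 of 14. Over all genes 5.84% passed in either direction.

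The genes most like Fkbp5 across the mice, members left out, were named by r. Ncoa4, a coactivator and receptor for ferritin breakdown, had r = 0.950 and rho = 0.946. Gpt2, the mitochondrial alanine aminotransferase of gluconeogenesis, had 0.934 (rho = 0.823), Retreg1, a receptor for autophagy of the endoplasmic reticulum, 0.925 (rho = 0.886), Mat1a, the liver methionine adenosyltransferase, 0.923 (rho = 0.765) and Cdip1 0.921 (rho = 0.743). All 5 reached the smallest permutation p for r (1e-05, adjusted p = 0.00420) and an adjusted p for rho of 0.0335 or less. Without the 3 low mice the r of these 5 lay between 0.728 (Cdip1) and 0.939 (Ncoa4).

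The genes that ran most against Fkbp5 were Adh4, an alcohol dehydrogenase, at r = -0.907 (rho = -0.836), Fez2 at -0.904 (rho = -0.795), Slc35d2, a nucleotide sugar transporter, at -0.901 (rho = -0.869), Fermt2, the integrin adaptor kindlin-2, at -0.888 (rho = -0.865) and Msrb1, a methionine sulfoxide reductase, at -0.888 (rho = -0.777). Each had permutation p = 1e-05 and adjusted p = 0.00420, and within both diets r was -0.864 or lower for each of the 5. Without the 3 low mice r lay between -0.846 and -0.739. For these 5 genes and the 5 most like Fkbp5, values after median subtraction or quantile normalization are not given here. The part of array-wide differences in them was not tested.

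Markers of liver cell types were read beside Fkbp5, since in whole liver fewer cells of a type and less RNA per cell cannot be told apart. Over all genes 2.79% passed in the positive direction and 3.05% in the negative one. Of 9 measured hepatocyte markers, 4 passed with a positive r (Cps1 and Tat, which are themselves glucocorticoid targets, Hnf4a and Apoa1) and 0 with a negative one. Their mean level lay between -0.541 and 0.568 SD units in MSXH mice and between -1.10 and 0.672 in HFD mice. Kupffer cell markers had a negative r in 8 of 8 and passed in 0 (median -0.34), with mean levels of -1.96 to 1.71 in MSXH mice and -0.810 to 1.62 in HFD mice. Stellate cell markers had a negative r in 7 of 7, with Lrat passing at -0.83 (median -0.49), and mean levels of -1.60 to 1.03 in MSXH mice and -0.852 to 1.04 in HFD mice. Of 10 sinusoidal endothelial markers 0 passed. Only 1 of 8 lymphocyte, 2 of 7 neutrophil, 3 of 6 red blood cell and 3 of 6 bile duct markers were above the filter level. Of these, the red cell marker Alas2, an enzyme of heme synthesis, passed with r = -0.657 (adjusted permutation p = 0.0495; -0.618 without the 3 low mice), and the others did not. The mean level of the 3 red cell markers lay between -0.756 and 0.685 SD units in MSXH mice and between -1.42 and 0.740 in HFD mice. No deposited value was 0 (the lowest was 5.20), so absence of a marker cannot be read from this table. The part of cell make-up in the correlations was not tested.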

How the data were processed

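Liver RNA of 20 mice (10 MSXH, 10 HFD) was measured on 1 Affymetrix array each. Per the labels' protocols, the submitters labelled 200 ng of total RNA with a 3′ IVT kit. The deposited values of 45101 probe sets were read as log2 levels, because they reach 14.96 and the natural log of the largest 16-bit scanner value is 11.09. How the background was corrected, the arrays normalized and the probes summarised is not given in the sources used here. Signal over background is unknown, and precision is limited by how many arrays there were.

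The platform annotation gave 1 gene for 34945 probe sets, several for 932 and none for 9160, and 64 were controls. Each of 18193 genes was represented by its probe set of highest mean, and the 11728 with a mean at or above the median of the probe sets were tested. The diet test used lmFit and eBayes of limma 3.58.1 (R 4.3.3). Correlations across mice were computed in Python 3.11.15 with numpy 2.4.6 and scipy 1.17.1, with 100000 permutations and Benjamini-Hochberg adjustment over all 117225 pairs. Both procedures were tested on simulated data. Promoters came from RefSeq (GRCm38.p6).

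The members and gene lists were chosen with earlier results of these data known. Named genes were all members, the 5 highest and 5 lowest in r with Fkbp5, and up to 4 genes of each list past the threshold, or 2 where none passed. Other genes named were chosen after their values were seen: Hsd11b1, Mdm2, and the cell type markers Alb, Tat, Hnf4a, Apoa1, Lrat and Alas2. Per the labels, replicates are biological and numbered 1 to 10 in a group, with no pairing stated between groups. Same-numbered mice of the 2 groups deviated together at r of -0.137 to 0.387. Alternatives covered rank tests, scaling, the filter, the probe set, the block, centring within diet, and leaving out arrays.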

Additional observations from a re-analysis of the deposited data

Results flagged for a closer look

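In 3 of 20 sets of 10 mice (10 genes in 2 groups), a single mouse stood apart from the other 9 by a large gap relative to the whole range of the group. Chance flags about 5% of sets, or 1 of 20. Zbtb16 in MSXH replicate 3 was low, with a gap of 0.697 of the range, at -2.60 SD units. Errfi1 was low in MSXH replicate 4, with a gap of 0.654 at -2.84 SD units, and in HFD replicate 5, with a gap of 0.744 at -2.71. The whole range of Errfi1 was 0.958 times that of the array medians, so these gaps rest on very small differences. MSXH replicate 4 and HFD replicate 5 also lay below the mean in all 9 induced genes, and MSXH replicate 3 in 8.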

How the results depend on the processing

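No diet difference of a member passed in any alternative run (0 members in each). By the rank-biserial correlation of the Wilcoxon test, Fkbp5 (-0.08), Tsc22d3 (-0.06) and Zbtb16 (-0.04) changed sign, and with arrays shifted to 1 median, Klf9 (0.240) and Errfi1 (0.244) did. Leaving out each mouse in turn, g ran from -0.273 to 0.219 for Fkbp5, -0.194 to 0.226 for Tsc22d3, -0.0515 to 0.558 for Zbtb16, -0.328 to 0.0459 for Ddit4, -0.273 to 0.142 for Sgk1, -0.268 to 0.0295 for Klf9, -0.202 to 0.225 for Cdkn1a, -0.499 to 0.256 for Errfi1, -0.525 to -0.0818 for Nr3c1 and -0.475 to -0.0151 for Dusp1. Replicate numbers do not pair the mice by the labels, same-numbered mice correlated best in 2 of 20 cases, and the replicate block left 0 members past the threshold.

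Of the 9 genes set against Fkbp5, 5 passed, and 0 passed within MSXH mice, within HFD mice or without the 3 low mice (0 of 9 in each). In those 3 runs the smallest possible permutation p gave adjusted p-values of 0.209, 0.0902 and 0.0558, so no pair could pass and their counts of 0 say nothing about stability. The 21 pairs that passed became 15 with no filter and 16 with Spearman's rho. They became 19 with the second highest probe sets and 24 with values centred within diet. After median subtraction there were 33, and after quantile normalization, where Klf9 and Errfi1 had no spread, 12 of 28. There were 0 within MSXH, 0 within HFD and 0 without the 3 mice. At an unadjusted permutation p below 0.05 those last 3 counts were 13, 35 and 25. The 4 calls of Nr3c1 became 9 after median subtraction, 1 with no filter, and 0 with Spearman's rho, after quantile normalization (0 of 7), within MSXH, within HFD or without the 3 mice. Of the 9 after median subtraction, 7 had a negative r. Those of Klf9 and Errfi1 passed with the opposite sign (adjusted permutation p = 0.00745 and 0.0300). The 33 pairs thus include some whose sign turned, and the share of all pairs that passed in that run is not given here.

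Median subtraction turned r of Fkbp5 with Klf9 (-0.406) and Errfi1 (-0.210), of Nr3c1 with Klf9 (0.613) and Errfi1 (0.504), and of Errfi1 with Ddit4 (-0.311) and Sgk1 (-0.0633). Quantile normalization turned r of Nr3c1 with Sgk1 (0.152) and took that of Fkbp5 with Sgk1 to 0.128. Array medians range more widely than Klf9 and Errfi1 do, and they correlated with Fkbp5 at r = 0.635. Subtracting them puts minus the array median into both genes at that size. The signs that turned under median subtraction are therefore not read as relations of Klf9 or Errfi1. The cause of the reversal of Nr3c1 with Sgk1 was not tested. No r changed sign in 600 values with 1 mouse left out, for which no new test was run. The runs without the 3 mice, within each diet, of the slope term and with genes scaled to unit SD were added after seeing the data. With no record of how the values were compressed, relations of the narrow genes (Nr3c1, Klf9, Errfi1) rest on very small differences.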
